A study of Mus musculus with 10 samples.

Results

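Genes of cAMP signaling were compared between types of intratelencephalic projection neurons (IT-PNs) of the mouse motor cortex, called Fezf2+ve and Fezf2-ve. The genes were taken by symbol alone: the phosphodiesterases (Pde and a number, with at most 1 letter from a to d), the adenylyl cyclases (Adcy and a number), the 6 subunit genes of protein kinase A (PKA), and the A-kinase anchoring proteins (Akap and a number, with or without a letter). This gave 55 of the 24453 genes in the count table, namely 23 phosphodiesterases, 10 cyclases, 6 PKA subunits and 16 anchors. The comparison asks whether transcripts of this pathway differ between the IT-PN types that share layer 5 of the primary motor cortex (M1).

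cAMP is a second messenger that adenylyl cyclases make from ATP, mostly under the control of G proteins, and that phosphodiesterases break down. It binds the regulatory subunits of PKA, which releases the catalytic subunits, and anchoring proteins hold the kinase beside its substrates. In cortical pyramidal neurons the pathway is known for its role in synaptic plasticity and in the control of excitability by neuromodulators.

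All cells came from male Swiss Webster mice hemizygous for the Fezf2-Gfp reporter, strain (Zfp312-EGFP)CO61GsatMmnc, in which regulatory elements of Fezf2 drive GFP. Cholera toxin subunit B (CTB) coupled to Alexa 647, a tracer carried back along axons, was injected into the left M1 at postnatal day 23 to 25. Layer 5 of the right M1 was dissected at postnatal day 28 to 32. The paper gives the interval from injection to tissue collection only under histology. FACS then separated the cells of each of 5 animals into a Fezf2+ve sample, with GFP and CTB, and a Fezf2-ve sample, with CTB but no GFP, and 1 RNA-seq library was made from each, so that the types were compared within animals. The reporter and the tracer define the cells, not their own Fezf2 transcript, and more Fezf2+ve than Fezf2-ve cells were sorted on average.

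Sequencing was shallow. The gene counts summed to 107643 to 203379 in Fezf2+ve libraries and to 89138 to 217738 in Fezf2-ve libraries, with a read counted once for every gene it overlaps, and 3 reads, taken here as the floor of detection, corresponded to 13.8 to 33.7 CPM (counts scaled to a common library total). Without molecular identifiers PCR reads are not separate molecules, so that intervals and floors here reflect no more than counting error. The test, with the animal as a block, took in the 7409 genes that reached 10 CPM in 2 or more libraries, and fold changes are given as log2 of Fezf2+ve over Fezf2-ve. Values by library are listed in the order of animals 1 to 5. In bulk samples like these, fewer cells of a type and less RNA per cell cannot be told apart.

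The labelled cell type was checked with marker genes. Fezf2 itself had 1 read in all 10 libraries. By RT-PCR, the paper reports a Fezf2 product in the sorted Fezf2+ve fractions and none in the Fezf2-ve samples. Of 12 markers of excitatory neurons, 7 were tested and 0 had an unadjusted p under 0.05; their summed reads were 73, 53, 37, 5 and 19 in Fezf2+ve libraries and 17, 10, 562, 24 and 9 in Fezf2-ve libraries. Camk2a held most of these, but 90% of its reads were in Fezf2-ve library 3, and in Fezf2+ve libraries Syt1 (54 reads) and Snap25 (50) exceeded it (43). Slc17a7 had at most 3 reads in any library, and Tbr1 had 0. Slc17a7 and Tbr1 were thus at or under the floor of 3 reads in every library of either type, and the label could not be checked with them. Of 9 markers of inhibitory neurons, Slc32a1, Pvalb, Vip and Lhx6 had 0 reads, and Adarb2 was the most read and the only gene tested (log2 fold change -0.83); the list had 33.9 to 1770.1 summed CPM in Fezf2+ve libraries and 66.2 to 5272 in Fezf2-ve libraries.

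Reads of microglial markers were mostly in Fezf2-ve libraries. All 14 were tested, all 14 had fold changes below 0, and 11 had an unadjusted p under 0.05, beside 2.27% of all tested genes in that direction; the edgeR fit called 0. Cx3cr1, Trem2 and Aif1 were the 3 with a higher p. Their summed reads were 32, 19, 12, 11 and 26 in Fezf2+ve libraries and 1161, 486, 1225, 392 and 879 in Fezf2-ve libraries, with Ctss the most read. Every Fezf2-ve library lay far above every Fezf2+ve library. However, P2ry12, Tyrobp, C1qa, C1qb, Tmem119, Siglech, Selplg, Trem2 and Aif1 reached 10 CPM in 2 libraries only among the Fezf2-ve libraries. The same held for 32.1% of all tested genes. For such genes, entry to the test itself favored a fold change below 0. Of 11 endothelial and blood markers, 9 were tested and 6 were higher in Fezf2-ve libraries with an unadjusted p under 0.05. These 6 were hemoglobin genes in 3 pairs of identical counts. Of them, Hba-a1 and Hba-a2 reached 10 CPM in 2 libraries only among the Fezf2-ve libraries. This list, with Hbb-bs most read, had 90, 17, 7, 0 and 10 reads in Fezf2+ve libraries and 597, 252, 32, 57 and 10 in Fezf2-ve libraries. Astrocyte markers (6 of 9 tested, Slc1a2 most read, Gfap at 0 reads), oligodendrocyte markers (7 of 9 tested, Opalin at 0 reads) and oligodendrocyte precursor markers (6 of 6 tested, Pdgfra most read) had 0 genes with a p under 0.05, had 5, 5 and 4 fold changes above 0, and were as high as 7683, 10711 and 3224 summed CPM, each in Fezf2+ve library 2. Of these genes only Mbp had its higher value on the Fezf2+ve side of every animal (log2 fold change 2.11, with an unadjusted p of 0.0872 in the edgeR fit). The microglial sums exceeded those of the excitatory markers in every Fezf2-ve library and in Fezf2+ve libraries 4 and 5, not in 1 to 3. Oligodendrocyte markers summed to 92, 1153, 74, 16 and 82 reads in Fezf2+ve libraries and to 344, 59, 70, 24 and 59 in Fezf2-ve libraries. These exceeded the excitatory sums in every Fezf2+ve library, and in Fezf2-ve libraries 1, 2 and 5. The lists differ in their genes, so these sums do not measure shares of cells. The part of any of these other cell types in the values of the cAMP genes was not tested.

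Among the cAMP genes, Akap5 had the most reads per length, and it was the only one that, after TMM normalization, was higher in every Fezf2+ve library than in every Fezf2-ve library. The reads of most others were sparse or came largely from 1 library. The 55 genes held 9757 reads in all 10 libraries together, of which 4765 were in Fezf2-ve library 1. Reads were seen for 50 genes, and Pde6b, Pde6c, Adcy4, Akap3 and Akap4 had 0. A further 11 genes had 1 to 11 reads in all and were not tested, which left 39. Of these 39, 12 reached 10 CPM in 2 libraries among the Fezf2-ve libraries alone and 4 among the Fezf2+ve libraries alone, beside 32.1 and 11.6% of all tested genes. The 12 were Pde6d, Pde7b, Pde9a, Prkaca, Prkar2a, Akap1, Akap2, Akap7, Akap8, Akap10, Akap11 and Akap12. The 4 were Pde2a, Adcy1, Adcy9 and Prkar1b. For such genes the filter favored the direction of the fold change, so counts of fold changes above and below 0 partly reflect it.

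At a false discovery rate of 0.1, the quasi-likelihood test of edgeR, adjusted by Benjamini-Hochberg, called 0 of the 39 cAMP genes and 0 of the 7409 genes tested (0%); the smallest adjusted p was 0.998 among the cAMP genes and 0.993 among all genes. At an unadjusted p under 0.05, 2 of the 39 passed, beside 3.89% of all tested genes. Akap5 was higher in Fezf2+ve libraries, as were 1.62% of all tested genes at that p. Akap2 was higher in Fezf2-ve libraries, as were 2.27%. DESeq2 with the same block gave 14 cAMP genes an adjusted p and, at the same rate, called 1, Akap5, beside 5.89% of the 1664 genes with an adjusted p. Without the block edgeR called 2, Adcy5 and Pde2a, beside 3.77% of the tested genes, and each of these had nearly all of its reads in 1 or 2 libraries. The median log2 fold change of the cAMP genes was 0.33, with 21 above and 18 below 0, and that of all tested genes was -0.16. With Akap2, which had 0 reads in Fezf2+ve libraries, set to its bound, the median of the cAMP genes was again 0.33. It was -0.21 without animal 4, with 17 of 38 above 0, 0.10 without animal 5, 0.14 without the block and -0.10 without the filter.

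**Figure D1:**
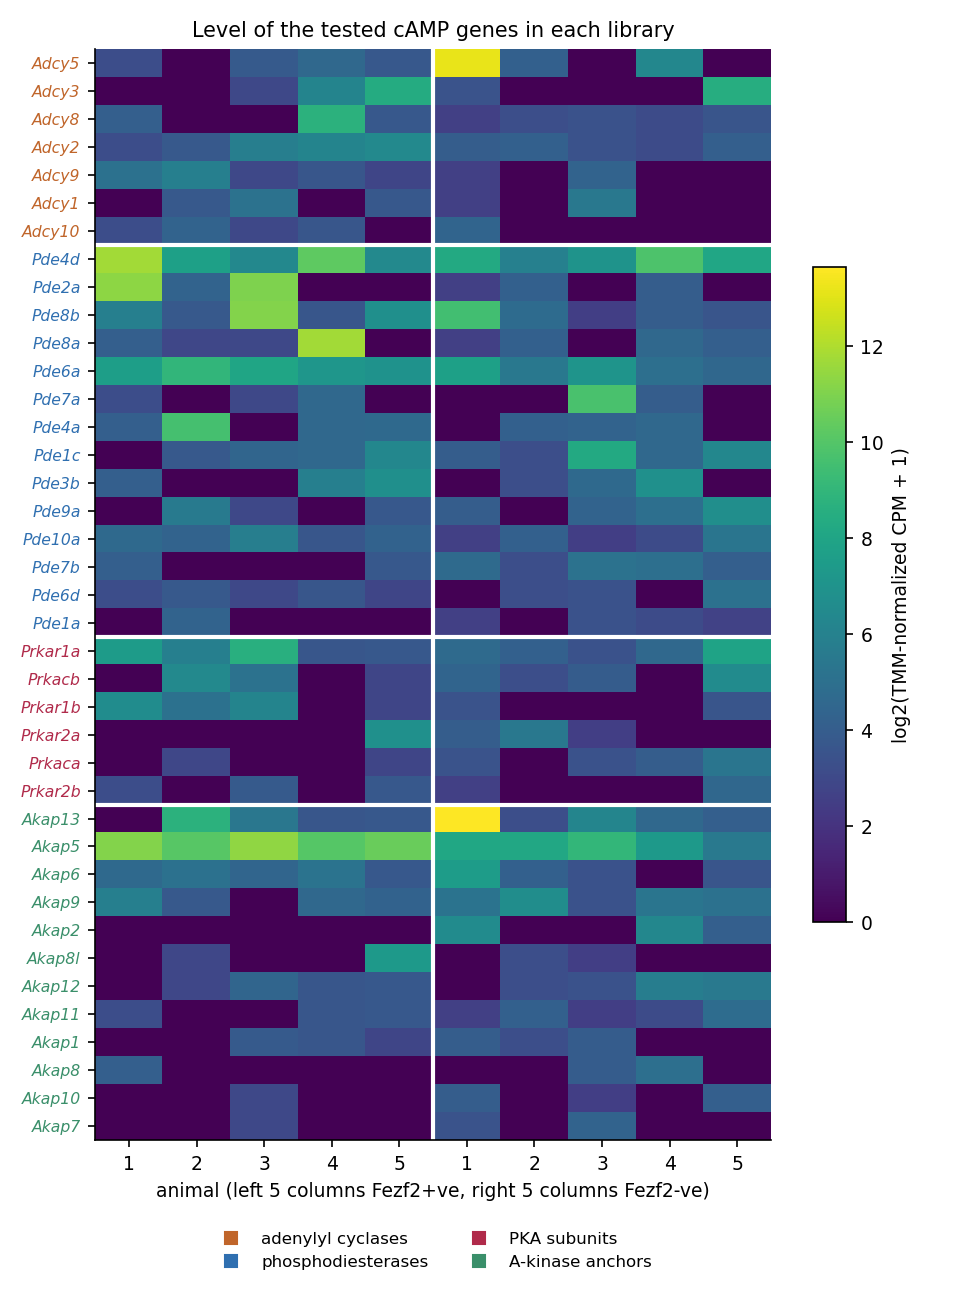
Level of the 39 tested cAMP genes, as log2 of TMM-normalized CPM plus 1, in the 5 Fezf2+ve libraries (left columns) and the 5 Fezf2-ve libraries (right columns), with genes colored by family. Akap5 is bright in every Fezf2+ve column, whereas Adcy5 and Akap13 are brightest in a single Fezf2-ve column, that of animal 1.

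The heatmap of levels shows how uneven the cAMP genes were between libraries. Of the 39 tested, 15 (38.5%) had at least 50% of their reads in 1 library, which held for 51.2% of all tested genes, and 4 (10.3%) had at least 90%, which held for 7.56%. Adcy5, Akap13, Pde7a and Pde8a were these 4. Reads in every library were found for 7 of the 39 (17.9%, against 12.3% of all tested genes): Akap5, Pde4d, Pde6a, Pde8b, Pde10a, Adcy2 and Prkar1a. Measured per length, as the median over libraries of CPM per kb of gene span, Akap5 was highest at 67.3, followed by Pde6a at 1.86 and Prkar1a at 1.29. Per kb of exon the order began with Akap5, Pde6a and Pde4d. The paper describes libraries biased to the 3' end, for which it sets length aside, and the gaps depend on this scaling. Without it, median TMM-normalized CPM in Fezf2+ve and Fezf2-ve libraries were 1452 and 279 for Akap5, 216 and 267 for Pde4d, and 197 and 43.1 for Pde6a.

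**Figure D2:**
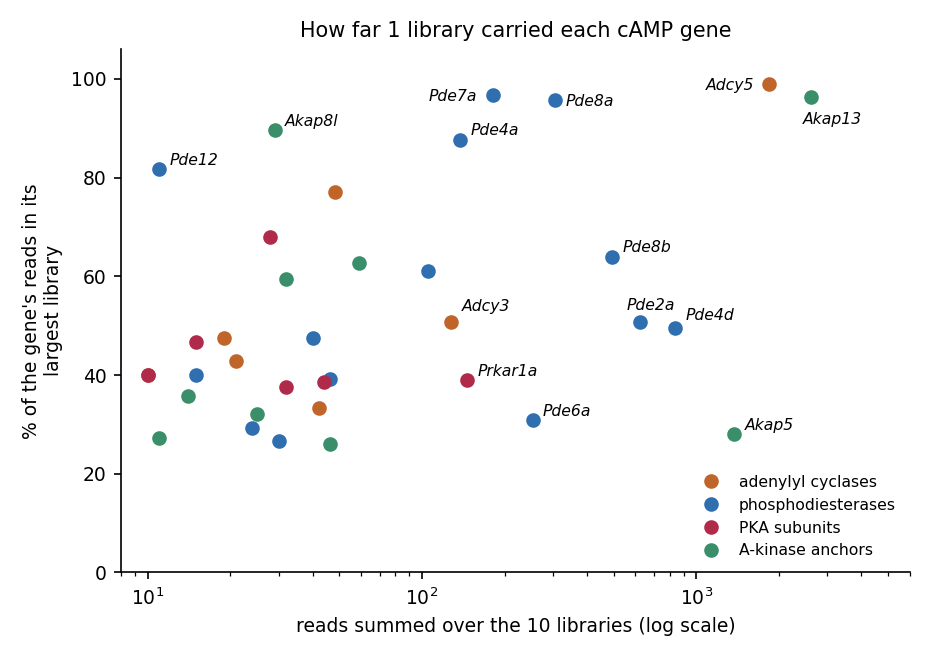
Percent of each cAMP gene's reads that came from its largest library (vertical axis) against its reads summed over the 10 libraries (horizontal axis, log scale), for genes with at least 10 reads, colored by family. Akap5 combined many reads with a low share in 1 library, while Adcy5 and Akap13 had over 90% of theirs in 1 library.

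The adenylyl cyclases, which synthesize cAMP, were thinly read in both IT-PN types apart from 1 library. Of the 10, 9 had reads and 7 were tested. In the edgeR fit 0 had an unadjusted p under 0.05, the smallest being 0.176, and 6 of the 7 fold changes lay above 0 with a median of 0.98. Among these 6, Adcy1 and Adcy9, which had the smallest p, passed the filter through the Fezf2+ve libraries alone. The summed CPM of the cyclases, from all gene reads, were 76.2, 149, 152, 356 and 369 in Fezf2+ve libraries and 10904, 67.3, 101, 56.8 and 321 in Fezf2-ve libraries. In 4 of 5 animals the Fezf2+ve library was the higher, and in animal 1 far the lower, so the groups overlapped and the means (220.5 ± 133 and 2290.1 ± 4817, SD, n = 5) ran opposite to the medians (152 and 101). With the 10 most read genes of each library left out, the means were 348 and 3074.

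Adcy5, a cyclase best known from the striatum, made up 87.2% of all cyclase reads. It had 1, 0, 2, 2 and 2 reads in Fezf2+ve libraries and 1819, 2, 0, 10 and 0 in Fezf2-ve libraries. Fezf2-ve library 1 thus held 99.0% of its reads, and the other 9 libraries overlapped at 0 to 10 reads. The log2 fold change was -1.38 (SE 2.30) with an unadjusted p of 0.556 in the edgeR fit, it was 0.09 without animal 1, and it was -7.26 without the block, where the quasi-likelihood test of edgeR gave a Benjamini-Hochberg adjusted p of 0.0931. Without Adcy5, the cyclases of Fezf2-ve library 1 came to 71.5 CPM.

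Adcy3, the cyclase of olfactory neurons and of neuronal primary cilia, had 0, 0, 1, 6 and 54 reads in Fezf2+ve libraries and 2, 0, 0, 0 and 65 in Fezf2-ve libraries. Both libraries of animal 5 were high and the rest low, and the groups overlapped (log2 fold change 0.98, SE 1.76). It lies across Cenpo on the other strand, and whether counting used strand is not stated, so reads of the pair cannot be told apart. The calcium-stimulated cyclases Adcy1 and Adcy8 had 19 and 48 reads in all. Adcy2, read in every library, had 31 Fezf2+ve and 11 Fezf2-ve reads (log2 fold change 1.42, SE 1.17), and Adcy9 had 16 and 5 (2.23, SE 1.59). Adcy9 passed the filter through the Fezf2+ve libraries alone.

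The phosphodiesterases, most of which break down cAMP or cGMP, took up more of the Fezf2+ve than of the Fezf2-ve reads in 4 of 5 animals, but their members reached this with different genes in different animals. Their summed CPM were 6569, 2397, 5819, 2810.2 and 477 in Fezf2+ve libraries and 1548, 325, 1909, 771 and 519 in Fezf2-ve libraries (means 3614 ± 2528 and 1014 ± 683, SD, n = 5). Fezf2+ve libraries 1 to 4 lay above every Fezf2-ve library, and Fezf2+ve library 5 lay below 4 of the 5. With the 10 most read genes of each library left out, the means were 6271 and 1334. The most read member was Pde4d, Pde4a, Pde8b, Pde8a and Pde6a in Fezf2+ve libraries 1 to 5, where it made up 53.5, 46.9, 46.0, 68.8 and 20.6% of the family. Of 23 phosphodiesterases, 21 had reads and 14 were tested; 9 fold changes lay above and 5 below 0, and 0 had an unadjusted p under 0.05. Pde6d, which binds prenylated proteins, and Pde12, which cleaves 2'-5' oligoadenylates, share the symbol but do not act on cAMP or cGMP.

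**Figure D3:**
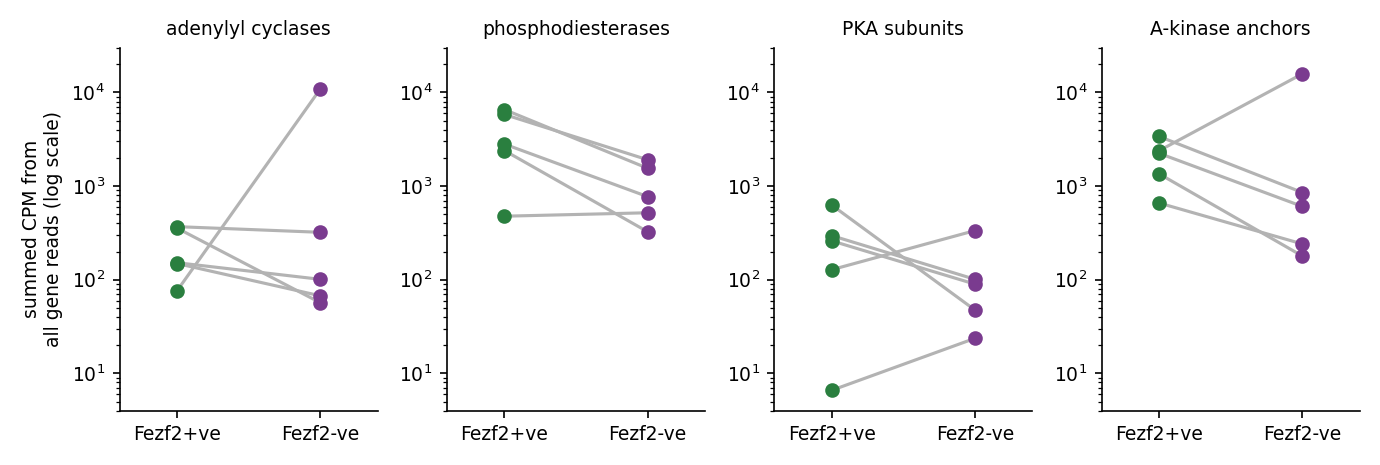
Summed CPM from all gene reads (log scale) of the adenylyl cyclases, phosphodiesterases, PKA subunits and A-kinase anchors in each Fezf2+ve and Fezf2-ve library, with the libraries of an animal joined by a line. The phosphodiesterases had the higher value in the Fezf2+ve library for 4 of 5 animals, and the cyclases and anchors of Fezf2-ve library 1 stand apart at 10904 and 15823.

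The cAMP-specific Pde4 enzymes were led by Pde4d, with 415, 33, 12, 104 and 14 reads in Fezf2+ve libraries and 61, 7, 26, 118 and 48 in Fezf2-ve libraries. It was high in Fezf2+ve library 1 and in both libraries of animal 4, and the groups overlapped throughout (levels 8.52 ± 2.39 and 7.82 ± 1.46 as log2 of normalized CPM plus 1, SD, n = 5; log2 fold change 0.65, SE 1.23, and -0.07 without animal 1). Pde4a had 2, 121, 0, 2 and 4 reads in Fezf2+ve and 0, 2, 4, 3 and 0 in Fezf2-ve libraries, so that Fezf2+ve library 2 alone was high (log2 fold change 2.16, SE 1.78, and 1.00 without animal 2). Pde4b, with 3 reads, and Pde4c, also with 3, were not tested.

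Pde2a, an enzyme that cGMP stimulates to break down cAMP, was abundant in Fezf2+ve libraries 1 and 3 and nearly absent elsewhere. Its reads were 315, 3, 298, 0 and 0 in Fezf2+ve libraries and 1, 2, 0, 2 and 0 in Fezf2-ve libraries. The other 3 Fezf2+ve libraries overlapped the Fezf2-ve ones, and the log2 fold change of 4.07 (SE 3.06; exact paired permutation p of 0.375) was 1.13 without animal 1, 1.22 without animal 3, 6.74 without animal 2, 6.92 without animal 4 and 2.04 in DESeq2. Pde2a passed the filter through the Fezf2+ve libraries alone. Without the block it was 6.86, where the quasi-likelihood test of edgeR gave a Benjamini-Hochberg adjusted p of 0.0931. A microRNA gene, Mir139, lies within it on the same strand.

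The high-affinity cAMP phosphodiesterases Pde8a and Pde8b also followed single libraries. Pde8a had 2, 1, 1, 293 and 0 reads in Fezf2+ve libraries and 1, 2, 0, 3 and 3 in Fezf2-ve libraries. Pde8b had 7, 2, 316, 1 and 18 reads in Fezf2+ve and 142, 3, 1, 2 and 2 in Fezf2-ve libraries. Outside Fezf2+ve library 4 for Pde8a, and Fezf2+ve library 3 and Fezf2-ve library 1 for Pde8b, the groups overlapped at low counts. The log2 fold changes were 1.22 (SE 1.86) and 0.83 (SE 1.85), and -0.25 without animal 4 and -0.62 without animal 3. Without the block they were 5.73 and 1.60.

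Pde7a and Pde7b, a pair of cAMP-specific enzymes, both had fold changes below 0. Pde7a had 1, 0, 1, 2 and 0 reads in Fezf2+ve libraries and 0, 0, 176, 2 and 0 in Fezf2-ve libraries, so 96.7% came from Fezf2-ve library 3 (log2 fold change -0.94, SE 2.39, -4.44 without the block, -2.37 without animal 1 and -0.32 in DESeq2). Without animal 3 it did not pass the filter. Pde7b had 2, 0, 0, 0 and 2 reads in Fezf2+ve and 5, 1, 7, 4 and 3 in Fezf2-ve libraries. It was the only tested cAMP gene with the lower value on the Fezf2+ve side of all 5 animals, which held for 2.42% of all tested genes, but normalized CPM of the groups overlapped, the counts were 0 to 7, and it passed the filter through the Fezf2-ve libraries alone. Its log2 fold change was -2.12 (SE 1.44), with an unadjusted p of 0.157 in the edgeR fit. An exact paired permutation test, two-sided, gave 0.0625, which is the smallest p that 5 animals allow. That p follows from the same direction in all 5 animals and adds nothing to it.

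Pde6a, the alpha subunit of the cGMP phosphodiesterase of rod photoreceptors, was among the more evenly read genes. It had 24, 78, 37, 12 and 20 reads in Fezf2+ve libraries and 42, 5, 27, 4 and 4 in Fezf2-ve libraries. In 4 of 5 animals the Fezf2+ve library was the higher, and the groups overlapped (levels 7.75 ± 0.81 and 5.96 ± 1.37, SD, n = 5; log2 fold change 1.77, SE 1.07, with an exact paired permutation p of 0.125). The GENCODE gene Rps2-ps10 overlaps Pde6a, and its part in these reads was not tested. Pde6b, for the other catalytic subunit in rods, and Pde6c, for that of cones, had 0 reads. The remaining tested phosphodiesterases were Pde1a, Pde1c, Pde3b, Pde6d, Pde9a and Pde10a, with 8 to 105 reads each and log2 fold changes between -1.69 and 0.96.

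The PKA subunits had the fewest reads of any family, 275 over the 6 genes. Their summed CPM were 296, 260.1, 627, 6.6 and 128 in Fezf2+ve libraries and 101, 89.7, 47.4, 23.7 and 335 in Fezf2-ve libraries (means 264 ± 233 and 119 ± 125, SD, n = 5). Without Prkar1a the means were 109.7 and 64.3; the Fezf2+ve mean was 173 without animal 3, and the Fezf2-ve mean was 65.5 without animal 5. The Fezf2+ve library was the higher in 3 of 5 animals and the groups overlapped. All 6 were tested, 3 fold changes lay above and 3 below 0, and 0 had an unadjusted p under 0.05.

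Among the regulatory subunits, which hold the kinase inactive until cAMP binds, Prkar1a held 53.1% of the PKA reads. It had 22, 9, 57, 1 and 2 reads in Fezf2+ve libraries and 5, 2, 2, 3 and 43 in Fezf2-ve libraries. Fezf2+ve libraries 1 and 3 and Fezf2-ve library 5 were high, and the groups overlapped (log2 fold change 1.26, SE 1.60; exact paired permutation p of 0.562). It was 0.08 without animal 3 and 2.24 without animal 5. Prkar1b, an isoform found mainly in brain, had 12, 5, 10, 0 and 1 reads in Fezf2+ve libraries and 2, 0, 0, 0 and 2 in Fezf2-ve libraries. It was high in Fezf2+ve libraries 1 to 3, at or below 2 reads in all others, passed the filter through the Fezf2+ve libraries alone, and had the smallest p of the family (log2 fold change 2.93, SE 1.69, with an unadjusted p of 0.1 in the edgeR fit). With 1 animal left out the fold change ran from 2.05 to 4.13 and the unadjusted p from 0.0344 (without animal 5) to 0.285 (without animal 3). Prkar2a had 0, 0, 0, 0 and 19 reads in Fezf2+ve and 3, 5, 1, 0 and 0 in Fezf2-ve libraries, and Prkar2b had 1, 0, 2, 0 and 2 in Fezf2+ve and 1, 0, 0, 0 and 4 in Fezf2-ve libraries. The groups overlapped for both, with log2 fold changes of -1.33 (SE 2.15) and 0.69 (SE 1.75); that of Prkar2a was 0.90 without the block.

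Of the catalytic subunits, Prkaca was near the floor, whereas Prkacb exceeded it in some libraries. Prkaca had 0, 1, 0, 0 and 1 reads in Fezf2+ve libraries and 2, 0, 2, 2 and 7 in Fezf2-ve libraries. In 4 of 5 animals the Fezf2+ve library had the lower value, and the 2 reads against 13 gave a 5.31-fold lower pooled CPM with a 95% exact counting interval of 1.2 to 48.5; without Fezf2-ve library 5 it was 3.29-fold (0.588 to 33.3). The difference did not pass the test, with an unadjusted p of 0.249 in the edgeR fit. Prkaca passed the filter through the Fezf2-ve libraries alone, and the pooled Fezf2-ve value of 15.2 CPM was within the range of the floor. Prkacb had 0, 13, 5, 0 and 1 reads in Fezf2+ve and 4, 1, 3, 0 and 17 in Fezf2-ve libraries, with overlapping groups (log2 fold change -0.46, SE 1.72).

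The A-kinase anchors held the 2 cAMP genes with an unadjusted p under 0.05, Akap5 with a fold change above 0 and Akap2 with one below, and neither was called by edgeR with the block. Their summed CPM were 2387, 2239, 3388, 659.7 and 1352 in Fezf2+ve libraries and 15823, 606, 854, 241 and 179 in Fezf2-ve libraries. The Fezf2+ve library was the higher in 4 of 5 animals, and Fezf2-ve library 1 stood above all others. Akap5 alone made up 95.4, 68.5, 96, 91 and 86.2% of these values in Fezf2+ve libraries, so that the sums there largely repeat it. The means were 2005 ± 1043 and 3541 ± 6872 (SD, n = 5) and the medians 2239 and 606, in opposite order. Of 16 anchors, 14 had reads and 12 were tested. Of these, 3 fold changes lay above and 9 below 0, with a median of -0.91, or of -0.79 with Akap2, which had 0 Fezf2+ve reads, set to its bound. Of the 9 below 0, only Akap9 and Akap13 did not pass the filter through the Fezf2-ve libraries alone. The tally and the median therefore partly reflect the filter.

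Akap5 encodes the anchor that holds PKA, protein kinase C and calcineurin at postsynaptic membranes. It lies at chr12:76324891-76334153 on the + strand (GRCm38), and no other GENCODE gene overlaps it. It had 269, 165, 384, 91 and 237 reads in Fezf2+ve libraries and 55, 34, 109, 21 and 8 in Fezf2-ve libraries. In TMM-normalized CPM these were 2205, 1079, 2654, 1071 and 1452 against 279, 293, 529.9, 163 and 44.4. Every Fezf2+ve library thus lay above every Fezf2-ve library on that scale, which held for 0.513% of all tested genes, and for 1 cAMP gene in this direction and 0 in the other. In CPM without TMM factors the groups overlapped, since the lowest Fezf2+ve library, of animal 4, had 600.3 and the highest Fezf2-ve library, of animal 3, had 646.

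**Figure D4:**
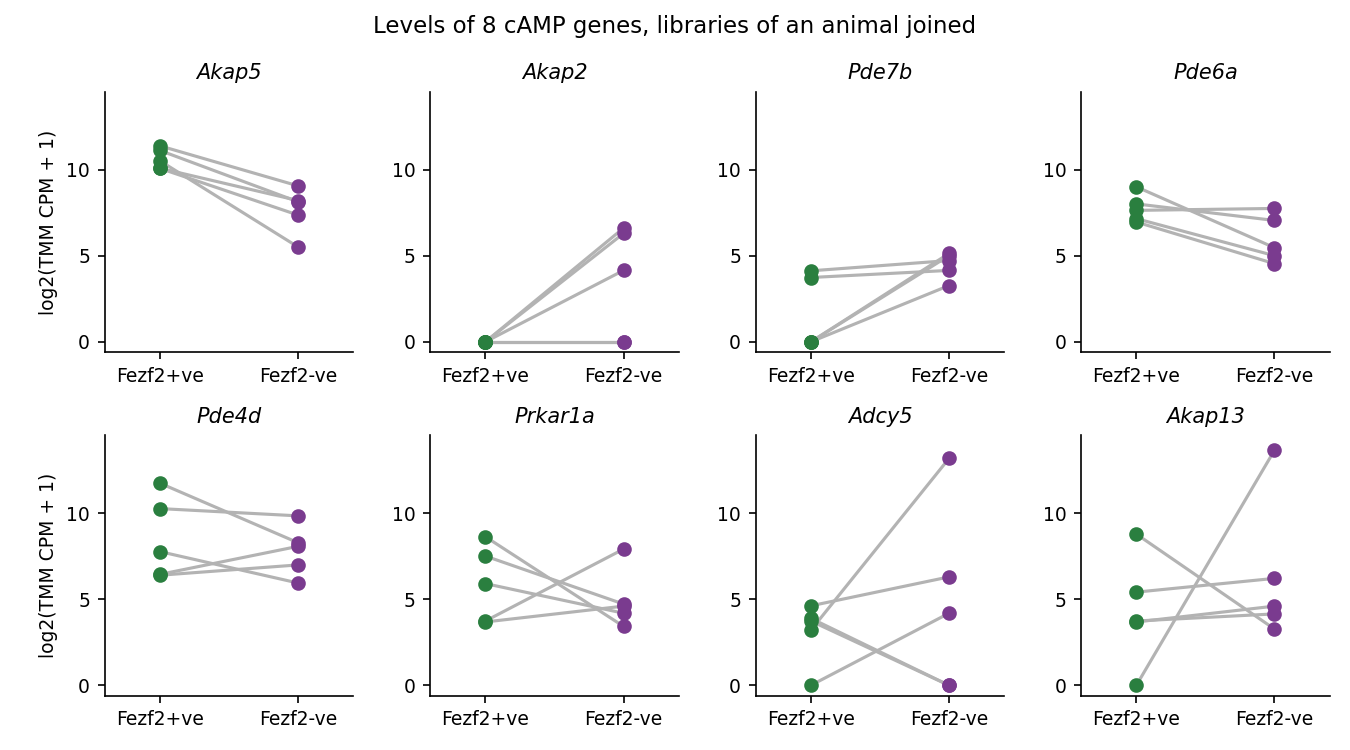
Levels of 8 cAMP genes, as log2 of TMM-normalized CPM plus 1, in the Fezf2+ve (green) and Fezf2-ve (purple) libraries, with the libraries of an animal joined by a line. The lines of Akap5 run down toward Fezf2-ve in 5 of 5 animals without overlap of the groups, and those of Adcy5 and Akap13 are set by the Fezf2-ve library of animal 1.

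Akap5 had a mean level of 10.63 ± 0.60 in Fezf2+ve libraries, against 7.65 ± 1.34 in Fezf2-ve libraries (SD, n = 5, log2 of normalized CPM plus 1). The difference within animals, drawn in the plot of paired levels, was above 0 in 5 of 5 animals, as it was for no other tested cAMP gene and for 1.69% of all tested genes. The log2 fold change was 2.92 (SE 1.13) with an unadjusted p of 0.019, and the Benjamini-Hochberg adjusted p over all genes was 0.998 in edgeR's quasi-likelihood fit. The legacy version of the same test gave an unadjusted p of 0.0838, while DESeq2 gave an adjusted p of 0.0581 and edgeR without the block one of 0.201. An exact paired permutation test, two-sided, gave p = 0.0625, the smallest that 5 animals allow. Any gene that moves the same way in 5 of 5 animals gets this p, so it adds nothing to that count. Leaving out 1 animal at a time gave log2 fold changes from 2.37 to 3.17, with unadjusted p from 0.0333 to 0.0494.

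The 250 bases before the start of Akap5 are shown because Akap5 was the only one of the 55 genes whose groups did not overlap after TMM normalization. They lie at chr12:76324641-76324890 on the + strand (RefSeq, GRCm38.p6), with GC boxes (GGGCGG, searched on both strands) in capitals.
Akap5: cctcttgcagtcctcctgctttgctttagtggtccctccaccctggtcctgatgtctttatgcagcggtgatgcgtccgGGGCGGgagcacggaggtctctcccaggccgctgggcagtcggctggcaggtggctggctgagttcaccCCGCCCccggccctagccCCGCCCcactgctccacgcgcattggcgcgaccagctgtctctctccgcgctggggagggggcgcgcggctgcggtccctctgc
The window held 3 GC boxes and neither the full cAMP response element TGACGTCA nor its part TGACG, which lies within the full form. RefSeq promoters of this length were found for 45 of the 55 cAMP genes. Of these, 28 (62.2%) had GGGCGG and 11 (24.4%) had TGACG, as did 35.4 and 19.8% of the 27025 genes with a promoter. A gene counted if any of its promoters matched. The 45 cAMP genes had 87 promoters and the 27025 genes had 32851. The cAMP genes thus had more windows per gene in which to match, and the shares are not like for like. Among tested genes, GGGCGG was found in 22 of 32 cAMP genes (68.8%) and in 61.5% of all 5613 matched, and TGACG in 9 of 32 (28.1%) and in 30.2%. TGACGTCA was found in 1 cAMP gene, Prkar1a (2.22% of the 45, against 1.77% of genes with a promoter; 3.12% of the 32, against 2.94% of tested genes). Its window is shown with the element in capitals, which begins 49 bases before an alternative start inside the gene, at chr11:109650890-109650917 on the + strand.
Prkar1a: cgaggcgcatTGACGTCAgcagccgaac
These motifs were chosen after the counts had been seen, and a match describes letters, not a bound site.

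Akap2 encodes an anchor that binds regulatory subunits of PKA. It had 0 reads in each of the 5 Fezf2+ve libraries and 19, 0, 0, 10 and 3 in Fezf2-ve libraries. Fezf2-ve libraries 1 and 4 carried most of it, Fezf2-ve libraries 2 and 3 were at 0 like the Fezf2+ve ones, and it passed the filter through the Fezf2-ve libraries alone. Against a floor of 3 reads per library, the mean CPM of the Fezf2+ve type was at least 1.54-fold lower, but without Fezf2-ve library 1 the Fezf2-ve mean was 15.3 CPM, under that floor of 22.6. The unadjusted p was 0.0238 in the edgeR fit, and it was 0.102 without animal 1, 0.0729 without animal 4, and 0.161 in DESeq2. Without animal 2, 3 or 5 it was 0.0245, 0.0351 and 0.0395. The legacy version of the test gave 0.0141, and edgeR without the block gave 0.006. Akap2 was higher in the type whose libraries also held the microglial reads (392 to 1225 per library), and their part in it was not tested. Akap2 lies across Pakap on the same strand, and a read that overlaps both is counted for both.

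Akap13 held 61.9% of all anchor reads. It had 0, 67, 6, 1 and 2 reads in Fezf2+ve libraries and 2529, 1, 15, 3 and 3 in Fezf2-ve libraries. Fezf2-ve library 1, the same library that held nearly all Adcy5 reads, had 96.3% of them, and the other libraries of the types overlapped (log2 fold change -0.77, SE 1.83, 0.38 without animal 1 and -4.67 without the block). Without Akap13 the anchors of that library came to 762 CPM, below 4 of the 5 Fezf2+ve libraries. The 9 other tested anchors had 7 to 59 reads each and log2 fold changes from -1.83 to 1.32, of which 7 lay below 0. All of these 7 except Akap9 passed the filter through the Fezf2-ve libraries alone.

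**Figure D5:**
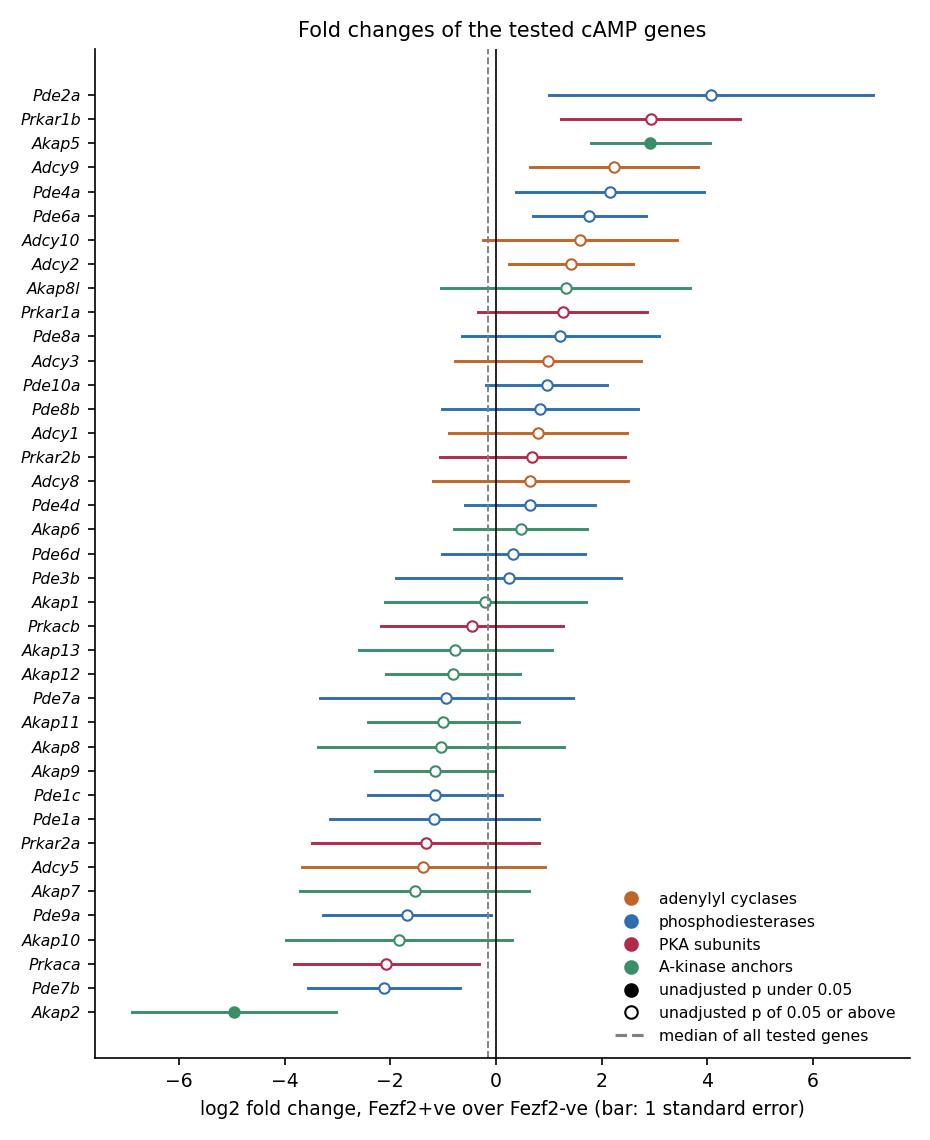
Log2 fold changes of the 39 tested cAMP genes, Fezf2+ve over Fezf2-ve (horizontal axis), with bars of 1 standard error, colored by family. Filled points mark an unadjusted p under 0.05, reached by Akap5 (2.92) and Akap2 (-4.95, a fitted value, as Akap2 had 0 Fezf2+ve reads), and the dashed line is the median of all tested genes at -0.16.

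As the plot of fold changes shows, the errors were wide, with standard errors from 1.07 (Pde6a) to 3.06 (Pde2a). The 20 tested cAMP genes not described by library had 7 to 105 reads, unadjusted p of 0.176 or more, and log2 fold changes from -1.83 to 2.23, with 10 above 0.

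Genes around the 4 families were then examined, from lists of G alpha subunits, cAMP-coupled receptors, cAMP effectors other than PKA, inhibitors and targets of PKA, and the cGMP arm. Of 79 genes listed, 76 were in the count table, 24 had 0 reads and 30 were tested. Their median log2 fold change was -0.12, with 14 above and 16 below 0, and it was also -0.12 with Pkia, at 0 reads in Fezf2+ve libraries, set to its bound. Of the 30, 9 passed the filter through the Fezf2-ve libraries alone and 3 through the Fezf2+ve libraries alone. The edgeR fit called 0. At an unadjusted p under 0.05, 1 gene was higher in Fezf2+ve libraries (Rapgef4) and 2 in Fezf2-ve libraries (Pkia and Crebbp). This stood beside 1.62 and 2.27% of all tested genes. Pkia and Crebbp passed the filter through the Fezf2-ve libraries alone. DESeq2 called 2 of the 9 pathway genes with an adjusted p (Crebbp and Rapgef4), beside 5.89% of the 1664 genes with one, and edgeR without the block called 3 of 30 (Crebbp, Pkig and Rapgef4), beside 3.77%.

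Upstream of the cyclases, 6 of 7 G alpha subunits were tested and 0 had a p under 0.05. Gnas, the stimulatory subunit, had 10, 13, 10, 1 and 8 reads in Fezf2+ve libraries and 54, 3, 5, 20 and 1 in Fezf2-ve libraries. The Fezf2-ve libraries spanned the whole range of the Fezf2+ve ones, and the log2 fold change was 0.26 (SE 1.27) with the block and -0.69 without it. Of 22 receptors in the table, 13 had 0 reads, among them Drd1, Drd5 and Adrb1, and 3 were tested, with 0 at a p under 0.05. Adcyap1r1, the receptor of the peptide PACAP, was the most read, with 11, 2, 17, 174 and 131 reads in Fezf2+ve and 93, 9, 3, 4 and 2 in Fezf2-ve libraries. It was high in Fezf2+ve libraries 4 and 5 and in Fezf2-ve library 1, and the groups overlapped (log2 fold change 2.34; exact paired permutation p of 0.312). With 1 animal left out the fold change ran from 0.68 (without animal 5) to 3.77 (without animal 2).

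Of 15 effectors other than PKA, 10 had reads and 5 were tested. Rapgef4, which exchanges nucleotide on Rap when cAMP binds it, had 3, 498, 6, 2 and 9 reads in Fezf2+ve libraries and 4, 1, 1, 0 and 0 in Fezf2-ve libraries. Fezf2+ve library 2 held 95.0% of its reads. In TMM-normalized CPM every Fezf2+ve library lay above every Fezf2-ve library, which held for 0.513% of all tested genes. The closest values were 23.5 in Fezf2+ve library 4 and 20.3 in Fezf2-ve library 1. In CPM without TMM factors the groups overlapped, at 13.2 in Fezf2+ve library 4 (2 reads) and 23.8 in Fezf2-ve library 1 (4 reads). The log2 fold change was 4.17 (SE 1.71), with an unadjusted p of 0.025 in the edgeR fit, and 2.90 without animal 2, with a p of 0.0922. Leaving out animal 3, 4 or 5 gave a p of 0.0629, 0.0531 and 0.0803, and leaving out animal 1 gave 0.0202. DESeq2 gave an adjusted p of 0.0814 with the block, and the quasi-likelihood test of edgeR gave a Benjamini-Hochberg adjusted p of 0.0931 without it.

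Inhibitors and targets of PKA were tested for 13 of 17 genes, of which 6 fold changes lay above and 7 below 0. Pkia, a peptide inhibitor of the catalytic subunits, had 0 reads in each Fezf2+ve library and 2, 99, 0, 0 and 0 in Fezf2-ve libraries. Against the floor of 3 reads per library the Fezf2+ve mean CPM was at least 9.92-fold lower, with an unadjusted p of 0.0192 in the edgeR fit, but 98.0% of the reads were in Fezf2-ve library 2, without which the mean was 2.98 CPM, under that floor. DESeq2 gave an unadjusted p of 0.554. Crebbp, a coactivator that binds phosphorylated CREB, had 0, 1, 0, 0 and 0 reads in Fezf2+ve and 3, 0, 54, 8 and 1016 in Fezf2-ve libraries. In 4 of 5 animals the Fezf2-ve library had the higher value, and the 1 read against 1081 gave an 884-fold difference in pooled CPM with a 95% exact counting interval of 158 to 34935. Fezf2-ve library 5 held 93.9% of its reads, and without that library the difference was 71.3-fold (12.4 to 2859). The unadjusted p was 0.0372 in the edgeR fit; it was 0.00566 without animal 2 and ranged from 0.116 to 0.194 without animal 1, 3, 4 or 5. DESeq2 gave an adjusted p of 0.0755.

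In the cGMP arm, 3 of 15 genes in the table were tested and 0 had a p under 0.05. Prkg1, a cGMP-dependent kinase, had 3, 31, 19, 6 and 17 reads in Fezf2+ve libraries and 9, 23, 28, 2 and 82 in Fezf2-ve libraries. The groups overlapped fully, with levels of 6.45 ± 1.13 and 6.63 ± 1.87 (SD, n = 5) and a log2 fold change of -0.25 (SE 1.08). Prkg2, the other such kinase, had 2 reads in all.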

How the data were processed

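RNA-seq read counts of 10 libraries, 5 of each IT-PN type, were analyzed. After trimming, the authors mapped the reads to mm10 and counted them with multiCov of BEDTools on genes of RefFlat, which adds a read to every gene it overlaps, and the deposited gene table holds these counts without normalization. The submitters' processing notes name bcl2fastq 1.8.4, TopHat2 2.1.1, bedtools 2.26.0, R 3.2.5 and DESeq2 1.10.1. Overlapping genes are therefore uncertain, and the use of strand is not stated. The deposited spike-in counts and the table of the authors' own comparison (mean levels, fold changes and p-values) were not used.

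The filter asked for 10 CPM or more in 2 libraries or more and kept 7409 of 24453 genes. After TMM normalization they were fitted in edgeR 4.0.16 (R 4.3.3) by quasi-likelihood, animal as block, and adjusted by Benjamini-Hochberg with a threshold of 0.1. A standard error is the fold change divided by the root of the F statistic. Summaries were made with Python 3.11.15, numpy 2.4.6, pandas 2.3.3 and scipy 1.17.1. The fit was tested on simulated data. Libraries were paired because the sample titles and the methods give both types of an animal the same number. Deviations of the 2 libraries of an animal from the means of their types correlated by 0.097, -0.007, 0.061, 0.021 and -0.027 over the tested genes.

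The genes and lists were chosen with earlier results of these data known. Genes described by library were the 6 PKA subunits, the 12 cAMP genes with the most reads, those with an unadjusted p under 0.05 and those that moved the same way in 5 of 5 animals. From the pathway lists they were the genes with an unadjusted p under 0.05 and the most read gene of each list. The version of the quasi-likelihood method was settled after values under 40 settings had been seen, 20 of them with the block. None of these 20 called a gene; the p of Akap5 ranged from 0.019 to 0.0933, was under 0.05 in 16, and was lowest in the setting used.

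Alternatives were no block, DESeq2 1.42.0 with the block, RLE size factors, no size factors, no filter (14508 genes tested) and each animal left out. Family sums were also taken without the 10 most read genes of each library. The legacy quasi-likelihood method and family sums without the most read member were added after the data had been seen. Where a type had 0 reads, a fold compares mean CPM with that of 3 reads per library and is a lower bound, and with 1 to 3 reads a ratio with its exact 95% counting interval. Positions are those of GENCODE vM21 on GRCm38, found for 24041 gene names. Promoters are from RefSeq, GRCm38.p6.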

Additional observations from a re-analysis of the deposited data

Results flagged for a closer look

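In groups of 5 libraries, the larger of the gaps from the highest and from the lowest library to the next, divided by the range of the group, was compared with Dixon's critical value of 0.71, in TMM-normalized CPM for genes and in CPM without TMM factors for families. It exceeded that value in 22 of the 56 groups examined, for 15 of the 25 genes described by library and for 3 of the 4 families, where chance gives about 1 in 20 for normally distributed values. Over all tested genes 41.6% of such groups exceeded it, beside 39.3% of those examined. In each case the highest library stood apart; for Crebbp in Fezf2+ve libraries it held 1 read against 0, and for Prkar2b in Fezf2-ve libraries 4 reads against 0 or 1, so these 2 were near or under the floor of 3 reads.

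Among Fezf2+ve libraries, the ratio was 1 for Prkar2a (library 5) and Crebbp (library 2, with its 1 read), 0.995 for Pde8a (library 4), 0.99 for Rapgef4 and 0.969 for Pde4a (library 2), 0.955 for Pde8b (library 3), 0.905 for Akap13 (library 2) and 0.787 for Adcy3 (library 5). Among Fezf2-ve libraries, library 1 stood apart for Akap13 (0.995), Adcy5 (0.992), Pde8b (0.971), Adcyap1r1 (0.856), the summed cyclases (0.976) and the summed anchors (0.957). Fezf2-ve library 5 stood apart for Adcy3 (0.972), Crebbp (0.953), Prkar1a (0.932), Prkacb (0.785), Prkar2b (0.772) and the summed PKA subunits (0.751). Fezf2-ve library 2 did so for Pkia (0.988) and Fezf2-ve library 3 for Pde7a (0.982). Akap5, Akap2, Pde7b, Pde6a, Pde4d, Pde2a, Prkaca, Prkar1b, Gnas and Prkg1 had no such library in either type in TMM-normalized CPM. This does not mean even reads, since Fezf2+ve libraries 1 and 3 held 315 and 298 of the 621 reads of Pde2a. The cause was not tested.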

How the results depend on the processing

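Every alternative named gave Akap5 a fold change above 0. Without the replicate block 279 genes and 2 cAMP genes were called, against 0 with it, and with DESeq2 and the block 98 and 1; at an unadjusted p under 0.05 the cAMP genes numbered 9 without the block (23.1%, beside 18.2% of all tested genes), 1 with DESeq2 (2.56%, beside 4.08%), 1 with the legacy method (Akap2; 2.56%, beside 3.97%), 1 to 3 with an animal left out (2.63 to 8.57%, beside 2.83 to 3.94%), and 2 in the fit reported (5.13%, beside 3.89%). The block changed the sign of 3 of the 39 cAMP genes, beside 11.1% of all tested genes: Prkar2a (0.90 without it), Pde6d (-0.17) and Akap6 (-0.84). Among the pathway genes described by library it changed that of Gnas (-0.69 without it). Of 269 pairs of a gene described by library and an alternative, 253 had the sign reported and 16 the other, and 12 of 25 genes were fitted under every alternative and had 1 sign throughout. With an animal left out, log2 fold changes that changed sign ranged from -1.91 to 0.67 for Prkacb, -4.22 to 0.09 for Prkar2a, -1.98 to 0.38 for Akap13, -2.85 to 0.09 for Adcy5, -0.07 to 1.14 for Pde4d, -0.62 to 2.15 for Pde8b, -0.25 to 2.50 for Pde8a, -0.14 to 2.07 for Adcy3, -0.53 to 1.05 for Gnas and -0.77 to 0.15 for Prkg1. Where too few libraries passed the filter there was no fit: for Pkia without animal 1 or 2, for Pde7a without 3 or 4 and for Prkar2b without 3 or 5. Family sums moved beyond 1 SD in 2 of 56 values: with the 10 most read genes of each library left out, the Fezf2+ve means were 6271 CPM for the phosphodiesterases and 3129 for the anchors. In Fezf2-ve sums with 1 library far above the rest the SD exceeded the mean, and larger shifts lay within it. The Fezf2-ve mean of the cyclases was 2290.1, 137 without animal 1 and 109.6 without Adcy5, and that of the anchors was 3541, 469.9 without animal 1 and 503 without Akap13. The cause of these shifts was not tested. At this depth a gene under 13.8 to 33.7 CPM was at or below 3 reads, so differences of such genes were not detectable.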
